A study of Mus musculus with 9 samples.

Results

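Heat shock proteins and chaperones were examined as a set of genes in mouse CD4+ T cells, the T lymphocytes that help other immune cells. Members were all genes whose symbol starts with Hspa, Hspb, Hspd, Hspe, Hsph, Hsp90 or Dnaj, together with the 8 subunits of the CCT chaperonin. A member also needed at least 100 raw counts summed over the 9 libraries. Of 39017 gene IDs in the table, 91 had such a symbol and 72 reached that total, while 19 did not and 6 of those had 0 counts. The 72 comprised 3 HSP90 genes, 8 HSP70 genes, 3 HSP110 genes, 40 J proteins, 2 genes of the mitochondrial chaperonin, 8 CCT subunits, 3 genes with small heat shock protein symbols, 2 HSP70-binding proteins and 3 pseudogenes. Just inside the total lay Hspb9 with 101 counts and Dnajb3 with 120 counts, and just outside it Hspa1b with 94 counts and Dnajb7 with 81 counts.

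Chaperones bind unfolded or partly folded proteins and, in cycles of ATP binding and hydrolysis, help them reach their folded state. J proteins deliver clients to HSP70 and speed its ATP hydrolysis, HSP110 proteins and other exchange factors reset HSP70, and HSP90 acts later on clients such as kinases and steroid receptors. Ring-shaped chaperonins, CCT in the cytosol and HSP60 with HSP10 in mitochondria, fold proteins inside a closed chamber. Heat shock factors induce many of these genes under proteotoxic stress, and activated T cells make large amounts of chaperones as they grow and divide.

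RNA was sequenced from lymph node CD4+ T cells of male C57BL/6 mice in 4 cKO libraries, numbered 2, 6, 7 and 8, and 5 WT libraries, numbered 1, 3, 4, 5 and 9. Every sample carried a floxed Kdm6a allele on its single X chromosome, and Kdm6a encodes a histone H3 lysine 27 demethylase. The cKO samples were CD4-Cre (+/-) and the WT samples CD4-Cre (-/-), so Cre and the loss of Kdm6a cannot be told apart. CD4-Cre acts in any cell in which the Cd4 promoter has been active, which includes CD8 T cells. The ages of the mice are not given, the labels state no stimulation although the name of the count table carries the word stim, and they do not say whether the libraries stem from separate mice. The p-values therefore measure the scatter among these 9 libraries only, and that scatter may be technical.

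Library totals ran from 20587482 to 26387488 counts, and levels are given as CPM, counts divided by the TMM-scaled library total in units of 1e6. Kdm6a was measured at 41.8, 42.6, 41.5 and 44.7 CPM in cKO 2, 6, 7 and 8, against 62.3, 59.99, 63.8, 63.4 and 63.7 CPM in WT 1, 3, 4, 5 and 9. No cKO library reached the lowest WT library, and Kdm6a fell by 0.55 on the log2 scale (SE 0.04, edgeR quasi-likelihood test with Benjamini-Hochberg adjustment, adjusted p = 2.89e-05). These whole-gene counts do not separate the deleted part of Kdm6a from its other exons. How complete the deletion was cannot be read from them. Of 6 CD4 T cell markers, all detected, Cd4 was higher in cKO at 956 CPM, against 872 CPM in WT (edgeR adjusted p = 0.0480). Cd3d (-0.19, adjusted p = 0.0476) and Cd3g (-0.23, adjusted p = 0.0311) were lower, and Cd3e, Cd28 and Cd2 did not pass. The neutrophil markers S100a8, S100a9 and Ly6g were at 0 in all libraries. Of 4 B cell markers Cd79b was lower in cKO, at 0.910 CPM against 1.72 CPM in WT (edgeR adjusted p = 0.0104), and 3 did not pass. No tested marker of plasma cells, NK cells, macrophages, erythroid cells or stroma passed, and dendritic markers were too low to test. The NK marker Eomes was at 38.9 CPM in cKO 2, against 6.45 to 18.2 CPM in the other libraries. The CD8 marker Cd8b1 was higher in cKO, at 14.1 CPM against 11.6 CPM in WT (edgeR adjusted p = 0.0296), and the summed CD8 markers stood at 16.8 ± 1.84 CPM in cKO and 13.4 ± 1.28 CPM in WT. Of 4 activation markers Il2ra was lower in cKO (-0.31, adjusted p = 0.0190), while Mki67 at -0.16, Cd69 at 0.63 and Myc at 0.30 did not pass. Mitochondrially encoded transcripts took 2.59% ± 0.138 of counts in cKO (SD, n = 4) and 2.38% ± 0.0572 in WT (SD, n = 5; two-sided exact permutation p = 0.0317). The part of any of these in the differences below was not tested.

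All 72 chaperone genes passed the filter on low counts, and 10 of them (13.9%) differed between cKO and WT at adjusted p 0.05, against 15.8% of all 14693 genes tested. The 4 that rose in cKO were Hsp90ab1, Dnajb4, Dnajc12 and the pseudogene Hspd1-ps3, beside 7.0% of all genes. The 6 that fell were Dnajc15, Hspa12a, Dnajb11, Dnajc3, Dnajb1 and Dnajb13, beside 8.82% of all genes. The share of members called was thus close to that of the whole table, and the changes were mostly small. The median log2 fold change was 0.05 over the members and 0.001 over all genes tested. At unadjusted p under 0.05, 17 members were higher and 8 lower, beside 14.9% of all genes higher and 16.3% lower, and the counts at this threshold below are read against those shares. The libraries of cKO and WT did not overlap in 10 members, 4 higher (7.08% of all genes) and 6 lower in cKO (8.78% of all genes), which makes 13.9% against 15.9% of all genes in either direction. In bulk RNA, fewer cells of a type and less RNA per cell cannot be told apart.

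**Figure D1:**
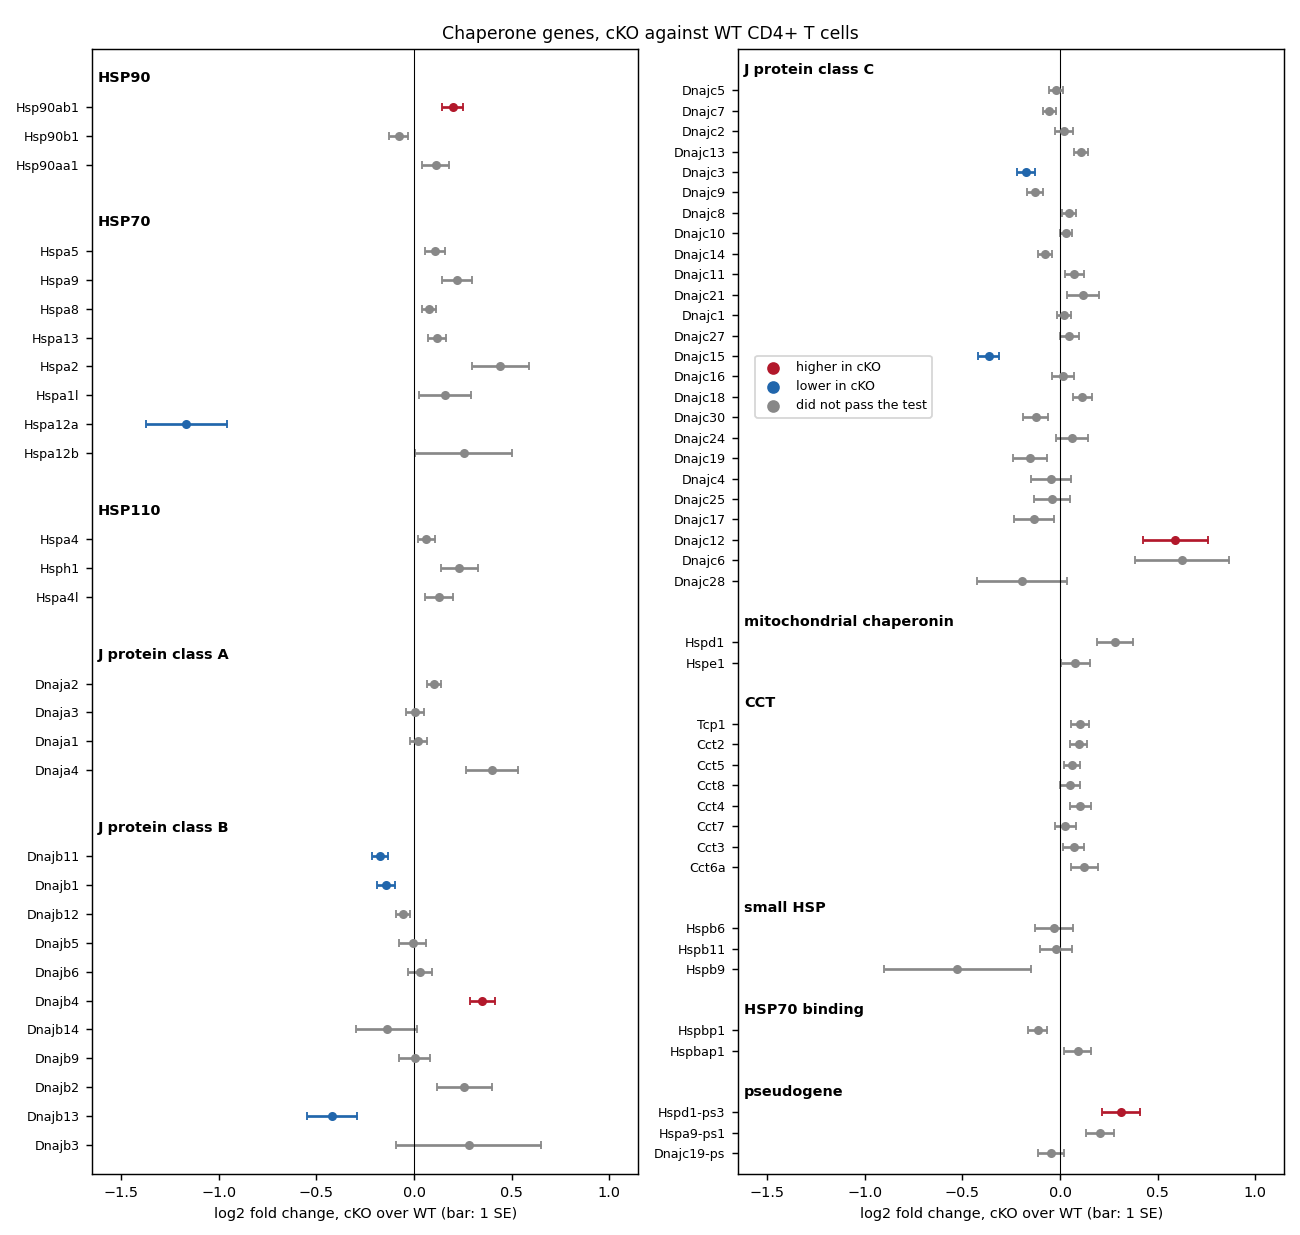
Log2 fold change, cKO over WT, of the 72 members by family, with bars of 1 SE; red points passed the edgeR test as higher in cKO, blue points as lower in cKO, and grey points did not pass. The CCT subunits sit together between 0.03 and 0.13, while Hspa12a stands at -1.17.

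Single libraries moved these counts. The called members numbered 18 (12 higher and 6 lower) without WT 1, but 3 without cKO 6, 4 without WT 4, 5 without WT 3, and 6 without either cKO 8 or WT 9. The higher members alone numbered 2 without cKO 2. Calls across the whole table moved in the same direction, from 2324 with all 9 libraries to 2933 without WT 1. They numbered 1263 without cKO 6 and 1528 without WT 4. With upper-quartile scaling the split was 7 higher and 4 lower, with DESeq2 8 higher and 6 lower, and with no count filter 6 higher and 4 lower. Over the whole table upper-quartile scaling called 1265 genes higher and 1068 lower, and the setting with no filter 930.0 higher and 1229 lower. DESeq2 called 7.38% of all its genes higher and 9.06% lower. With limma-voom 4 members were higher and 5 lower, beside 6.91% and 8.64% of all genes. Dnajb4, Dnajc15 and Hspa12a were called in each of the 17 other settings tried.

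Promoters were read from RefSeq (GRCm38.p6), as 250 bases before to 50 bases after each annotated start, for the 57 members with an entry. A heat shock element, the motif that heat shock factors bind, was searched as GAANNTTC or TTCNNGAA, which each read the same on both strands, and overlapping matches were counted. At least 1 match lay in the promoters of 13 of the 57 members (22.8%), against 17.0% of the 27025 genes in the table. Hspd1, Hspe1 and Hsph1 had 3 matches each. Those of Hspd1 and Hspe1 are the same bases read on opposite strands, so this shared stretch counts for both genes among the 13 members. Dnajb4 had 1 and was the member with such a match that passed the test. The endoplasmic reticulum (ER) stress element, searched as CCAAT followed after any 9 bases by CCACG, on both strands, lay in the promoters of Hspa5, Hsp90b1 and Dnajc3, 3 of the 57 members (5.26%), against 0.137% of all genes. The promoters of Hspd1, Hsph1 and Dnajb4 are shown as those with heat shock elements that the results below turn on, and those of Hspa5, Hsp90b1 and Dnajc3 as all with the ER stress element. Capitals mark the matches, and each sequence runs 5′ to 3′ along the strand of its gene. The Hspd1 window is chr1:55087883-55088182 on the minus strand, at 1 of its 2 annotated starts, the other with 0 matches, and overlaps the Hspe1 window on the opposite strand. The other windows are chr5:149636287-149636586 (minus) for Hsph1, chr3:152193796-152194095 (minus) for Dnajb4 (at 1 of its 2 annotated starts, the other with 0 matches), chr2:34771840-34772139 (plus) for Hspa5, chr10:86705395-86705694 (minus) for Hsp90b1 and chr14:118937682-118937981 (plus) for Dnajc3.
Hspd1: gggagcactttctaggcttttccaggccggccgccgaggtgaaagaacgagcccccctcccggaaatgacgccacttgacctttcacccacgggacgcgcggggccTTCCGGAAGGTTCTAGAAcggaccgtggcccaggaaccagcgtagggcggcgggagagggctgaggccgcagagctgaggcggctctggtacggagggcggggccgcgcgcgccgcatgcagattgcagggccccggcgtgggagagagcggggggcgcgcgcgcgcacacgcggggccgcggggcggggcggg
Hsph1: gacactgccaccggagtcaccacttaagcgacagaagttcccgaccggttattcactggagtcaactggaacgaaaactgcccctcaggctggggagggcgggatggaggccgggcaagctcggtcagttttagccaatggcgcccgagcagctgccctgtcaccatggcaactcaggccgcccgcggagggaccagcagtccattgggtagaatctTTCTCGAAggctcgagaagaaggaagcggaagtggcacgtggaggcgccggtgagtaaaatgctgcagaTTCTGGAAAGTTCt
Dnajb4: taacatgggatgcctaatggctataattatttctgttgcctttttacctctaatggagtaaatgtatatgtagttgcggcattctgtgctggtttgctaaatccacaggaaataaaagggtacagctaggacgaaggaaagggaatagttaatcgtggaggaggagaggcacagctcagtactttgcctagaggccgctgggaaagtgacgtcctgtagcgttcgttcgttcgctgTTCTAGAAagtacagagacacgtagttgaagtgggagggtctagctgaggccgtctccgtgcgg
Hspa5: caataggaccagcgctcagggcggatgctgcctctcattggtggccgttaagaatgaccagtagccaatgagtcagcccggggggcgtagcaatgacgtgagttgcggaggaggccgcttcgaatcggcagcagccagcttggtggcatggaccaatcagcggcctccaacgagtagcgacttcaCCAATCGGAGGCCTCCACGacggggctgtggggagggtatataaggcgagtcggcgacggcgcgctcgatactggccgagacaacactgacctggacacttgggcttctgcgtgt
Hsp90b1: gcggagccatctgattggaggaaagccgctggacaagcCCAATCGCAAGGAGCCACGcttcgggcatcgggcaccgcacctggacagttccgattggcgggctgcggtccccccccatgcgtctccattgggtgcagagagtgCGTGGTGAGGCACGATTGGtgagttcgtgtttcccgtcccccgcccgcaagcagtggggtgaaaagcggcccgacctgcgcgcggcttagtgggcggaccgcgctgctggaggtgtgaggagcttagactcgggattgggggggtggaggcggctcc
Dnajc3: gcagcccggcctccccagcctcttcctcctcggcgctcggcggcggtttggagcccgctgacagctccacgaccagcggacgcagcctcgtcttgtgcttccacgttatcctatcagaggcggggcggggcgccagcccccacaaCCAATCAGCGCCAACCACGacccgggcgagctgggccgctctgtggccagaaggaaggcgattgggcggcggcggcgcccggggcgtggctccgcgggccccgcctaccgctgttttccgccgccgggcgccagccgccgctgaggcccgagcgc
Of the 13 members with a heat shock element, 1 rose and 0 fell in the edgeR test, with a median log2 fold change of 0.08. Of the 44 without, 0 rose and 6 fell, with a median of 0.003. Among all genes tested 7.0% rose and 8.82% fell. Of the 4 members that rose, Hsp90ab1, Dnajc12 and Hspd1-ps3 had no promoter entry. The counts of rising members with and without the element thus rest on Dnajb4 alone. A match is a description of the letters in these windows and not a measured binding site.

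HSP90 genes gave the largest chaperone output. Hsp90ab1, the constitutive cytosolic HSP90 beta, had 4552, 4614, 4226 and 4433 CPM in cKO 2, 6, 7 and 8, against 4247, 3999, 3565, 4018 and 3589 CPM in WT 1, 3, 4, 5 and 9. All cKO libraries were above 4 of the WT libraries, and the lowest of them, cKO 7, lay just below WT 1. Hsp90ab1 rose by 14.7%, a log2 fold change of 0.20 (SE 0.05, edgeR adjusted p = 0.0280). The adjusted p was 0.0569 without cKO 2, 0.0827 without cKO 6, 0.0639 without cKO 8, 0.0588 without WT 4 and 0.0637 without WT 9. Per kilobase of transcript it stood at 1768 ± 67.8 CPM in cKO and 1541 ± 118 CPM in WT, far above the other 71 members. Hsp90aa1, the inducible alpha form, averaged 249 ± 14.4 CPM in cKO and 231 ± 23.1 CPM in WT, a log2 difference of 0.11 with a 95% interval from -0.04 to 0.26. Hsp90b1, the ER form also called GRP94, went the other way without passing the test, at 632 ± 43.2 CPM in cKO and 667 ± 30.5 CPM in WT (-0.08, interval -0.19 to 0.03).

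Among the HSP70 genes 1 of 8 fell and 0 rose in edgeR, beside 8.82% and 7.0% of all genes. Of the 8, 3 were higher at unadjusted p under 0.05, beside 14.9% of all genes, and 1 was higher in DESeq2. The most abundant per kilobase were Hspa9 (mortalin, of mitochondria), Hspa5 (BiP, of the ER) and Hspa8 (the constitutive cytosolic HSC70), at 211, 174 and 160.3 CPM per kilobase in cKO and 181, 161 and 152 in WT. Hspa9 had 656, 702, 595 and 613 CPM in cKO 2, 6, 7 and 8, against 619, 575, 496, 583 and 481 CPM in WT 1, 3, 4, 5 and 9. Its groups overlapped through WT 1, and the log2 difference of 0.22 (SE 0.08) did not pass in edgeR (adjusted p = 0.0738), though it did without WT 1 (0.0251) and in DESeq2 (0.0451). Hspa5 differed by 0.11 (interval -0.004 to 0.22) and Hspa8 by 0.08 (interval -0.003 to 0.16), and neither passed in any setting tried. Hspa2, best known from testis, was at 4.38 ± 0.504 CPM in cKO and 3.23 ± 0.626 CPM in WT (0.44, adjusted p = 0.0641), and passed without WT 1 (0.0131) and in limma-voom with sample weights (0.0374).

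Hspa12a, a distant and poorly expressed HSP70 relative, showed the largest change of any member. It had 0.801, 0.662, 0.720 and 0.760 CPM in cKO 2, 6, 7 and 8, against 1.16, 1.80, 1.41, 2.12 and 1.83 CPM in WT 1, 3, 4, 5 and 9. Every cKO library lay below every WT library, on 264 counts in all. It fell by 55.5%, a log2 fold change of -1.17 (SE 0.21, edgeR adjusted p = 0.00450), with a range of -1.28 to -1.07 over the other settings. The gene (ENSMUSG00000025092) lies on the minus strand at chr19:58795750-58943654 of GRCm38, build mm10. Its sister gene Hspa12b was at 1.10 ± 0.246 CPM in cKO and 0.918 ± 0.276 CPM in WT, with no difference beyond that spread (adjusted p = 0.523).

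The heat-inducible HSP70 genes Hspa1a and Hspa1b were barely detected, with 34 and 94 counts over all 9 libraries. Hspa1b had 16, 21, 6 and 5 counts in cKO 2, 6, 7 and 8, against 11, 15, 5, 9 and 6 counts in WT 1, 3, 4, 5 and 9. The groups overlapped throughout. The transcripts of the pair are 99.2% identical over 2201 bases, so reads could be split between them or left out by the authors' counting, and both values are uncertain. Hspa1l was at 3.77 ± 0.371 CPM in cKO and 3.39 ± 0.528 CPM in WT, and its transcript is only 85.4% identical to that of Hspa1a. The Hspa1l exons share 1778 bases with Gm10501 on the other strand, so its value is uncertain if counting ignored strand.

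The HSP110 genes, exchange factors for HSP70, gave no call in edgeR, in DESeq2 or in limma-voom, and 1 of 3 was higher at unadjusted p under 0.05. That gene was Hsph1, with 157, 162, 130.2 and 142 CPM in cKO 2, 6, 7 and 8, against 150.0, 129, 109, 131 and 109 CPM in WT 1, 3, 4, 5 and 9. WT 1 sat among the cKO libraries, and the log2 difference of 0.23 (SE 0.10, edgeR adjusted p = 0.123) passed only without WT 1 (0.30, adjusted p = 0.0257). Hspa4, the most abundant of the 3, averaged 525 ± 14.7 CPM in cKO and 502 ± 26.2 CPM in WT.

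Hspd1, which encodes the mitochondrial chaperonin HSP60, lies head to head with Hspe1, the gene of its lid HSP10. Hspd1 had 309, 344, 281 and 282 CPM in cKO 2, 6, 7 and 8, against 290.0, 265, 216, 263 and 218 CPM in WT 1, 3, 4, 5 and 9. Only WT 1 overlapped the cKO libraries, and the log2 difference of 0.28 (SE 0.09) missed the threshold in edgeR (adjusted p = 0.0600). It passed without WT 1 (0.0182), with upper-quartile scaling (0.0443), with no count filter (0.0366) and in DESeq2 (0.0265). Hspe1 had 52.4, 55.2, 48.4 and 43.4 CPM in cKO 2, 6, 7 and 8, against 52.3, 46.6, 42.3, 49.0 and 45.9 CPM in WT 1, 3, 4, 5 and 9. These values overlapped fully, with a log2 difference of 0.08 and a 95% interval from -0.09 to 0.24. The exons of the pair share 112 bases on opposite strands.

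The called pseudogene Hspd1-ps3, on chromosome 11 (41498737 to 41500458, plus strand), is 98.96% identical to the Hspd1 transcript over 1722 bases. It held 56006 counts, against 57638 for Hspd1 itself, so 49.3% of the counts of this sequence stood on copies. Its level was 307, 330.3, 267 and 291 CPM in cKO 2, 6, 7 and 8, against 282, 252, 208, 258 and 202 CPM in WT 1, 3, 4, 5 and 9. WT 1 again lay inside the cKO range. The log2 fold change was 0.31 (SE 0.10, edgeR adjusted p = 0.0493), and the call was lost in 8 of 16 other settings. With gene and copies summed, an alternative added after seeing the data, Hspd1 had a log2 difference of 0.30 (SE 0.09, adjusted p = 0.0524). The reads of the 2 cannot be assigned with certainty, so the pseudogene call is uncertain.

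**Figure D2:**
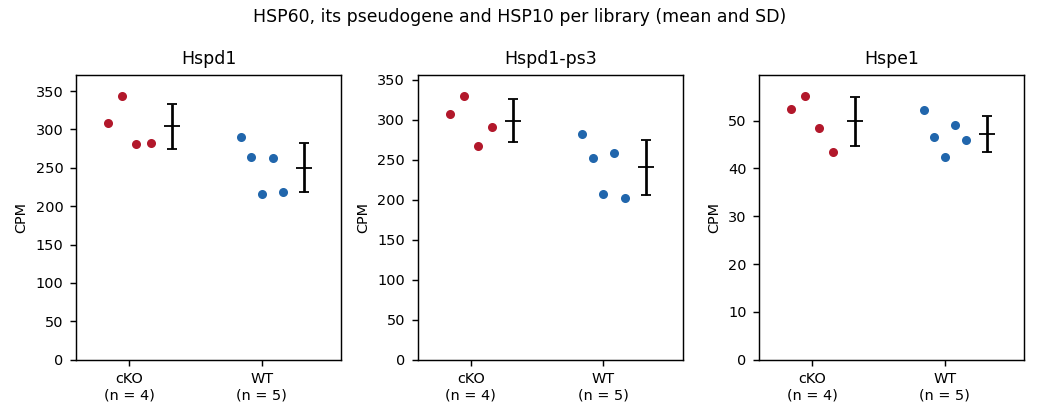
CPM of Hspd1, of its pseudogene Hspd1-ps3 and of Hspe1 in each cKO (red) and WT (blue) library, with the mean and SD beside the points. Hspd1 and Hspd1-ps3 have nearly the same level and order of libraries, and WT 1 is the highest WT library in all 3.

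Other chaperone transcripts also had copies elsewhere. In all, 27 annotated pseudogenes aligned to 13 members at 90% identity or more over at least 250 bases, and 11 of them had at least 100 counts. Copies held 28.3% of the summed counts for Hsp90aa1, 51.2% for Dnajc19, 33.8% for Dnajc17, 12.9% for Dnaja1 and 10.8% for Hspa9, but 2.42% for Hsp90ab1. Summing changed no other call among these members, and Hsp90ab1 stayed at 0.20 (adjusted p = 0.0282).

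The CCT subunits, which fold actin and tubulin among other clients, all stood slightly higher in cKO with log2 differences from 0.03 (Cct7) to 0.13 (Cct6a). None passed the test in edgeR, DESeq2 or limma-voom, and 2 of 8, Tcp1 and Cct2, were higher at unadjusted p under 0.05, beside 14.9% of all genes. Tcp1 had 711, 737, 674 and 681 CPM in cKO 2, 6, 7 and 8, against 694, 667, 606, 672 and 620.3 CPM in WT 1, 3, 4, 5 and 9. Again WT 1 lay within the cKO range while the other WT libraries lay below it. The Tcp1 log2 difference was 0.10 with a 95% interval from 0.004 to 0.21, and its edgeR adjusted p was 0.146. For Cct6a the interval ran from -0.03 to 0.28, the highest upper bound of the 8 subunits. Cct7 changed sign in 3 of 17 settings, at -0.004 without WT 4, -0.007 without cKO 6 and -0.006 in limma-voom with sample weights. Per kilobase the subunits ran from 339 CPM (Cct2) to 135 CPM (Cct6a) in cKO and from 317 to 124 CPM in WT. Cct2 and Cct5, at 339 ± 11.9 and 328 ± 7.97 CPM per kilobase in cKO, did not differ beyond their spread, nor did Cct4, Cct7 and Cct3 in the middle of the order. Tcp1 shares exon bases with Mrpl18 and Acat3 on the other strand and Cct7 with Pradc1. Reads from such pairs cannot be told apart where counting ignored strand, which is not given in the sources used here.

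**Figure D3:**
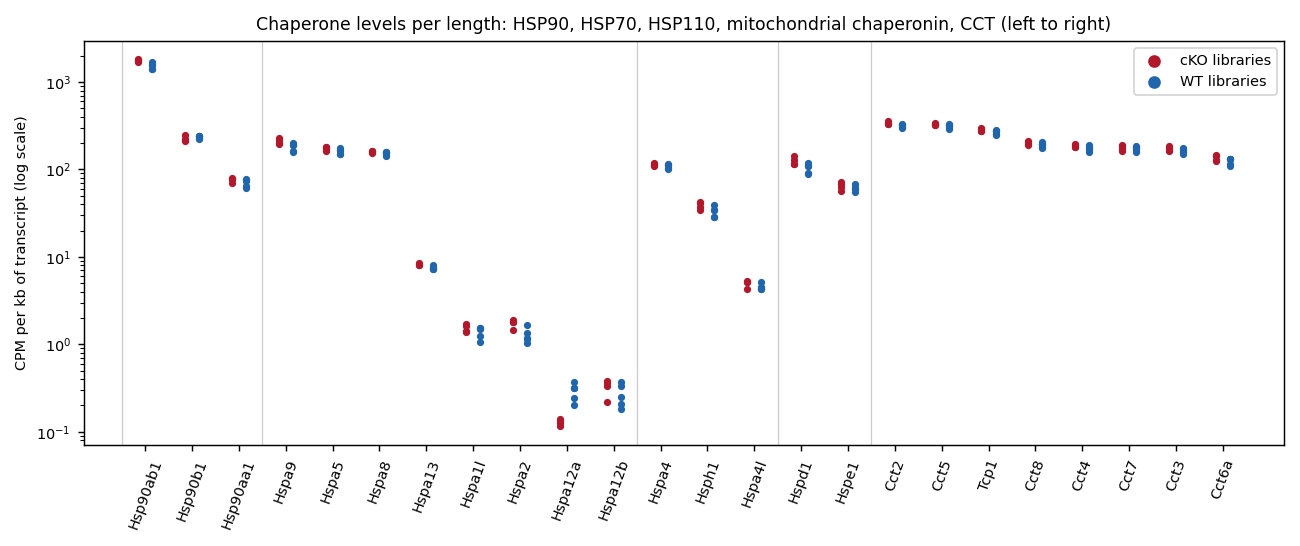
CPM per kilobase of transcript on a log scale for the HSP90, HSP70, HSP110, mitochondrial chaperonin and CCT genes, each dot 1 library, cKO in red left of WT in blue. Hsp90ab1 is the highest, the CCT subunits lie within a narrow band, and Hspa12a and Hspa12b are the lowest.

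Prefoldin hands substrates to CCT. Of 10 tested prefoldin and CCT cofactors, 3 rose, 1 fell and 6 did not pass in edgeR. Among all genes tested 7.0% rose and 8.82% fell. Pdcl, a phosducin-like cofactor for G protein beta subunits, had 56.2, 63.7, 61.4 and 56.0 CPM in cKO 2, 6, 7 and 8, against 51.0, 48.1, 47.4, 46.2 and 46.3 CPM in WT 1, 3, 4, 5 and 9. The groups did not overlap, and Pdcl rose by 0.31 on the log2 scale (SE 0.05, edgeR adjusted p = 0.00285). The prefoldin subunit gene Pfdn2 rose by 0.24 (adjusted p = 0.0196) and the prefoldin-like Uri1 by 0.12 (adjusted p = 0.0279), while the prefoldin subunit gene Pfdn1 fell by 0.16 (adjusted p = 0.0129). Without cKO 6, Pfdn2 (adjusted p = 0.0662) and Uri1 (0.0563) lost their calls, and Uri1 also lost its call without cKO 2, cKO 8, WT 4 or WT 9 and with no count filter (0.0563 to 0.0801 over these settings).

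J proteins, the largest family, went both ways. Of 40, 2 rose (5.0%), 5 fell (12.5%) and 33 did not pass, with a median log2 fold change of 0.009. Among all genes tested 7.0% rose and 8.82% fell. None of the 4 class A genes, the closest relatives of bacterial DnaJ, was called in edgeR or limma-voom, while 2 were higher at unadjusted p under 0.05, beside 14.9% of all genes. Dnaja2, the most abundant of class A per kilobase, averaged 276 ± 2.92 CPM in cKO and 257 ± 10.8 CPM in WT without overlap (0.10, adjusted p = 0.0739), and Dnaja4 averaged 15.02 ± 3.07 CPM in cKO and 11.4 ± 1.30 CPM in WT (0.40, adjusted p = 0.0619). DESeq2 called both (0.0494 for Dnaja2 and 0.0289 for Dnaja4). In edgeR, Dnaja2 passed with upper-quartile scaling (0.0355). Dnaja4 passed there with no count filter (0.0459), without WT 1 (0.0461) and without cKO 7 (0.0207). Dnaja4 shares 1581 exon bases with Wdr61 on the other strand.

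Class B held 1 gene that rose and 3 that fell among 11, beside 7.0% and 8.82% of all genes. Dnajb4, a cytosolic partner of HSP70, had 14.8, 16.3, 14.8 and 16.1 CPM in cKO 2, 6, 7 and 8, against 12.1, 12.4, 11.9, 13.2 and 11.4 CPM in WT 1, 3, 4, 5 and 9. Every cKO library was above every WT library, and Dnajb4 rose by 27.4%, a log2 fold change of 0.35 (SE 0.06, edgeR adjusted p = 0.00487). It lies on the minus strand at chr3:152178511-152210302. Dnajb1, the classical heat-inducible HSP40, had 101, 89.8, 88.7 and 92.6 CPM in cKO 2, 6, 7 and 8, against 102, 101, 101, 109 and 101 CPM in WT 1, 3, 4, 5 and 9. cKO 2 reached the level of the WT libraries. Its log2 fold change was -0.14 (SE 0.04, edgeR adjusted p = 0.0493), and the call was lost in 12 of 17 other settings, with adjusted p between 0.0505 and 0.141 in those. Dnajb13, a protein of sperm axonemes, was at 2.61 ± 0.306 CPM in cKO and 3.49 ± 0.432 CPM in WT (-0.42, adjusted p = 0.0472), and also lost its call in 12 of 17 settings. It shares 305 exon bases with Ucp2 on the other strand, which held 115007 counts and stood at -0.11 (adjusted p = 0.0547), so the Dnajb13 value is uncertain.

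Class C, whose members share little beyond the J domain, held 1 gene that rose and 2 that fell among 25. These are 4.0% and 8.0%, beside 7.0% and 8.82% of all genes. Dnajc15, also called MCJ, is a J protein of the inner mitochondrial membrane known to restrain respiratory complex I. It had 28.3, 26.03, 27.0 and 24.3 CPM in cKO 2, 6, 7 and 8, against 34.4, 36.2, 33.1, 34.2 and 32.3 CPM in WT 1, 3, 4, 5 and 9. The highest cKO library was well below the lowest WT library. Dnajc15 fell by 22.4%, a log2 fold change of -0.37 (SE 0.05), and had the smallest adjusted p of the members (0.00197 in edgeR). It stayed between -0.40 and -0.33 over the other settings, and lies on the minus strand at chr14:77820681-77875125. Dnajc12, a J protein tied in humans to the folding of aromatic amino acid hydroxylases, had 2.74, 4.01, 2.98 and 2.64 CPM in cKO 2, 6, 7 and 8, against 2.29, 1.93, 1.54, 2.41 and 2.10 CPM in WT 1, 3, 4, 5 and 9. The groups did not overlap, with cKO 6 apart from the other cKO libraries. The log2 fold change was 0.59 (SE 0.17, edgeR adjusted p = 0.0348). The call was lost without any 1 of WT 3, WT 4, WT 9, cKO 6 or cKO 7, with adjusted p between 0.0604 and 0.116.

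**Figure D4:**
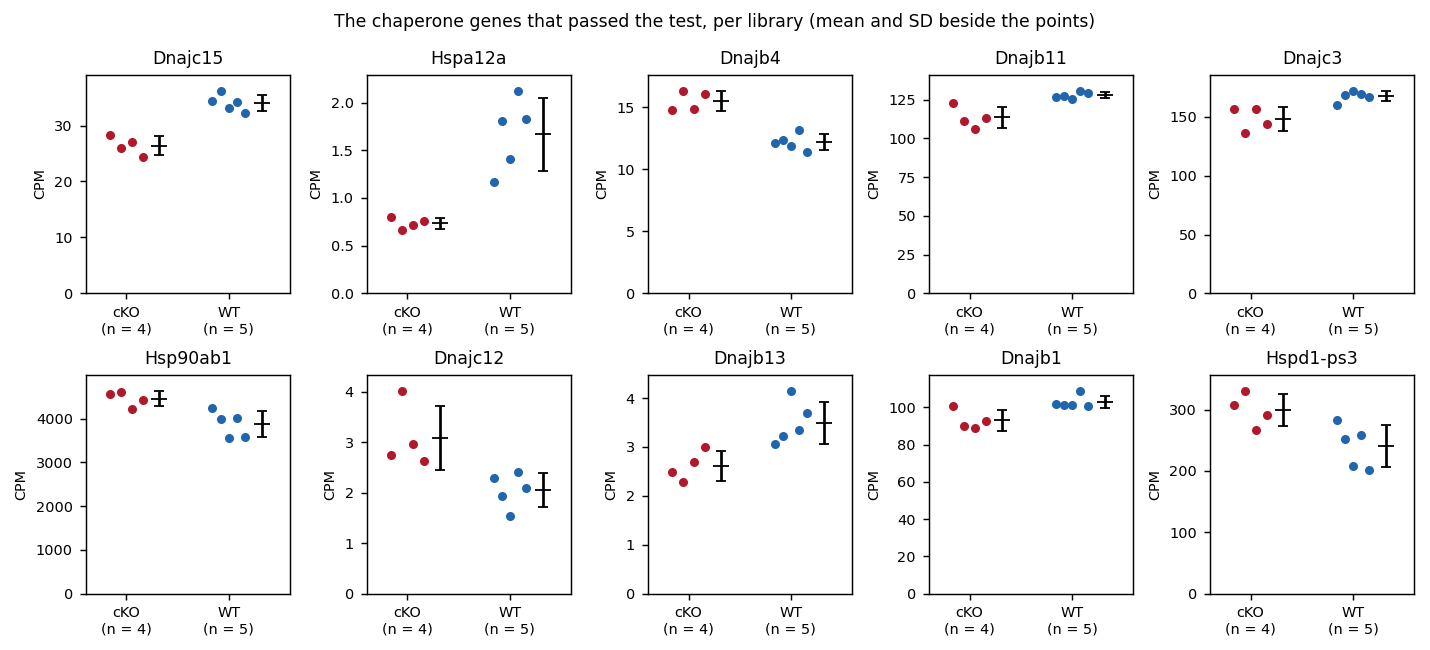
CPM per library of the 10 members that passed the test, in order of adjusted p, with cKO (red, n = 4) left of WT (blue, n = 5) and the mean and SD beside the points. Dnajc15, Hspa12a and Dnajb4 show no overlap, while Hsp90ab1, Dnajb1 and Hspd1-ps3 overlap in at least 1 library.

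Several abundant class C genes did not pass in edgeR. Dnajc8, a spliceosome-associated J protein, was the most abundant per kilobase, at 107 ± 2.72 CPM per kilobase in cKO and 103 ± 3.22 in WT, followed in cKO by Dnajc9, a histone chaperone. Dnajc9 averaged 145 ± 2.42 CPM in cKO and 159 ± 8.42 CPM in WT without overlap (-0.13, edgeR adjusted p = 0.0621), and Dnajc13, an endosomal J protein, 169 ± 5.10 CPM in cKO and 157 ± 5.46 CPM in WT without overlap (0.11, adjusted p = 0.0731). Dnajc9 passed in DESeq2 and without WT 1, and Dnajc13 with upper-quartile scaling and without WT 1. Dnajc10, an ER reductase, was among the steadiest of the class, with a coefficient of variation of 1.83% in cKO and 1.63% in WT and a log2 difference of 0.03 (interval -0.04 to 0.10).

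Chaperones of the ER did not move as 1 group. Of 9 ER members, 0 rose and 2 fell in edgeR, beside 7.0% and 8.82% of all genes, and 7 did not pass. Of the 9, 1 was higher at unadjusted p under 0.05 and 0 were higher in DESeq2 or limma-voom. Both genes that fell serve BiP or its signalling. Dnajb11, the BiP cochaperone ERdj3, had 123, 112, 106 and 113 CPM in cKO 2, 6, 7 and 8, against 127, 127, 126, 131 and 129.6 CPM in WT 1, 3, 4, 5 and 9. Dnajc3, also called p58IPK and an inhibitor of the stress kinase PERK, had 157, 136, 156 and 144 CPM in cKO 2, 6, 7 and 8, against 160.4, 168, 172, 169 and 167 CPM in WT 1, 3, 4, 5 and 9. In both genes every cKO library was below every WT library, and the WT libraries varied little. The log2 fold changes were -0.17 for Dnajb11 (SE 0.04, edgeR adjusted p = 0.0180) and -0.17 for Dnajc3 (SE 0.05, adjusted p = 0.0261), which are 11.4% lower in each case. Dnajb11 lost its call without cKO 6 (adjusted p = 0.0564), and Dnajc3 without cKO 6 (0.0747), cKO 8 (0.0785), WT 3 (0.0556) or WT 4 (0.0595). Among the 3 members with an ER stress element shown above, Dnajc3 fell, Hsp90b1 stood at -0.08 and Hspa5 at 0.11, the last 2 without passing. Dnajb9, the ER J protein ERdj4, averaged 8.35 ± 0.400 CPM in cKO and 8.35 ± 0.690 CPM in WT.

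Around these genes, Xbp1 stood out among 10 tested genes of unfolded protein response signalling. Of the 10, 1 fell and none rose in edgeR, beside 8.82% and 7.0% of all genes. At unadjusted p under 0.05 0 were higher, as in DESeq2 and limma-voom. Xbp1 encodes the transcription factor activated by IRE1 splicing. It had 210.2, 137, 197 and 193 CPM in cKO 2, 6, 7 and 8, against 252, 295, 295, 251 and 323 CPM in WT 1, 3, 4, 5 and 9. All cKO libraries were below all WT libraries, with cKO 6 the lowest, and Xbp1 fell by 34.9% (log2 -0.62, SE 0.12, edgeR adjusted p = 0.00599). These whole-gene counts do not separate spliced from unspliced Xbp1. None of 11 tested ER folding enzymes passed in edgeR, DESeq2 or limma-voom without sample weights, and 0 were higher and 2 lower at unadjusted p under 0.05. With sample weights limma-voom called 2 of them lower, Ppib and Pdia3, and Pdia3 also passed without cKO 2 (-0.16, adjusted p = 0.0263). The smallest p-values were those of the prolyl isomerase gene Ppib (-0.10, adjusted p = 0.0710) and the disulfide isomerase gene Pdia3 (-0.11, adjusted p = 0.116). The kinase gene Eif2ak3 (PERK) stood at -0.01 and Atf4 at 0.16 (adjusted p = 0.222).

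Of 9 members that work in mitochondria, 0 rose and 1, Dnajc15, fell in edgeR, beside 7.0% and 8.82% of all genes. At unadjusted p under 0.05, and in DESeq2, Hspa9 and Hspd1 were higher and Dnajc15 lower. Dnajc19, the J protein of the import motor, averaged 10.9 ± 1.16 CPM in cKO and 12.1 ± 0.923 CPM in WT (adjusted p = 0.256). Dnaja3, which acts with Hspa9, averaged 63.7 ± 2.18 CPM in cKO and 63.6 ± 3.49 CPM in WT, a log2 difference of 0.003 (interval -0.10 to 0.11). It shares 160 exon bases with Vasn (-0.30) on the same strand and 153 with Coro7 (-0.43) on the other strand. The Dnaja3 value is thus uncertain. Of 9 mitochondrial proteases and translocase partners, 1 fell and none rose, beside the same shares of all genes. The gene that fell was Spg7, the protease subunit paraplegin, at -0.18 (SE 0.05, edgeR adjusted p = 0.0198). Spg7 lost its call without cKO 6 (0.0579).

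Small heat shock protein genes had low counts. Hspb1, the best known of them, had 12 counts in all libraries together and is not a member. Hspb6 averaged 6.86 ± 0.350 CPM in cKO and 7.01 ± 0.796 CPM in WT, and Hspb11, an intraflagellar transport protein that carries the symbol, 6.47 ± 0.442 CPM in cKO and 6.57 ± 0.440 CPM in WT. Hspb9 stood at 0.378 ± 0.236 CPM in cKO and 0.554 ± 0.128 CPM in WT. None of the 3 passed in edgeR, DESeq2 or limma-voom, and 0 did at unadjusted p under 0.05. Of the HSP70-binding proteins, the exchange factor Hspbp1 averaged 62.0 ± 4.12 CPM in cKO and 67.1 ± 2.37 CPM in WT (-0.11, adjusted p = 0.133).

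Regulators and partners of HSP70 and HSP90 were mostly level, with single exceptions. Of 4 tested heat shock factors and regulators 1 rose and none fell in edgeR, and none was lower at unadjusted p under 0.05. Among all genes tested 7.0% rose and 8.82% fell in edgeR, also to be set beside the exchange factors and cochaperones below. Hsf1, the main heat-responsive factor, averaged 45.5 ± 1.78 CPM in cKO and 45.5 ± 2.45 CPM in WT (log2 0.002). Hsf2, a related factor, had 27.4, 32.9, 27.0 and 26.5 CPM in cKO 2, 6, 7 and 8, against 22.4, 19.6, 19.3, 22.5 and 21.4 CPM in WT 1, 3, 4, 5 and 9. The groups did not overlap, and Hsf2 rose by 35.1% (log2 0.43, SE 0.08, edgeR adjusted p = 0.00430), a call that held in all 17 other settings. Of 10 nucleotide exchange factors, Bag2, which binds HSP70 and restrains the ubiquitin ligase CHIP, rose by 0.61 (SE 0.12, adjusted p = 0.00672) to 14.4 ± 1.31 CPM in cKO, against 9.39 ± 1.57 CPM in WT. Bag6, which shields hydrophobic clients, fell by 0.10 (adjusted p = 0.0472), a call lost in 11 of 17 settings. Of 18 cochaperones, Fkbp5, an HSP90 partner of the glucocorticoid receptor, fell by 0.24 (SE 0.05, adjusted p = 0.00811), at 115 ± 6.15 CPM in cKO and 136 ± 6.74 CPM in WT. The other 17 did not pass in edgeR.

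The core families varied together from library to library. HSP90 genes took 0.550%, 0.556%, 0.511% and 0.536% of counts in cKO 2, 6, 7 and 8, against 0.511%, 0.493%, 0.440%, 0.489% and 0.440% in WT 1, 3, 4, 5 and 9. The CCT subunits took 0.409%, 0.431%, 0.389% and 0.392% in the cKO libraries, against 0.400%, 0.389%, 0.349%, 0.386% and 0.361% in the WT libraries. In both families WT 4 and WT 9 were the lowest libraries and WT 1 the highest of the WT group, level with or above cKO 7. J proteins took 0.263% ± 0.0017 of counts in cKO (SD, n = 4) and 0.261% ± 0.0034 in WT (SD, n = 5), and so hardly varied. All 72 members together took 1.54% ± 0.0571 in cKO and 1.40% ± 0.0781 in WT. WT 1 was the highest WT library in 32 members and WT 4 the lowest in 27, while cKO 6 was the highest cKO library in 33 and cKO 7 the lowest in 34.

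**Figure D5:**
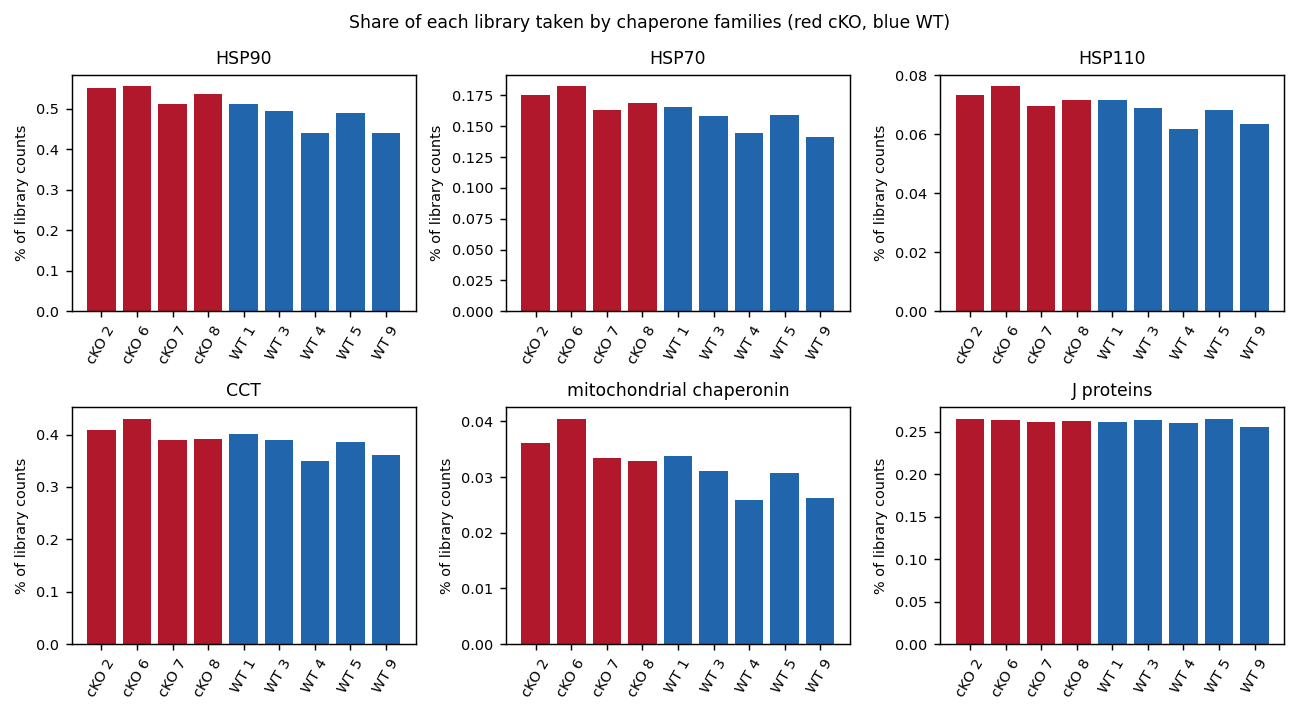
Percent of library counts taken by 6 chaperone families, 1 bar per library, cKO in red left of WT in blue. In HSP90, HSP70, HSP110, CCT and the mitochondrial chaperonin, cKO 6 is the highest library and WT 4 and WT 9 are the lowest, while the J proteins stay near 0.26%.

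Other values moved in part along the same libraries. The summed level of 7 early response genes, which handling of cells can raise, was 786, 876, 608 and 794 CPM in cKO 2, 6, 7 and 8, against 1046, 738, 509, 699.9 and 477 CPM in WT 1, 3, 4, 5 and 9. It was highest in WT 1 and lowest in WT 9 and WT 4, and cKO 7 was the lowest of the cKO libraries. Most of the sum was Junb, at 499 ± 95.6 CPM in cKO and 433 ± 174 CPM in WT. Of the 7, Jun rose by 0.54 (edgeR adjusted p = 0.0166) and the other 6 did not pass, with Fos at -0.46 (adjusted p = 0.0538). In all, 4 of the 7 had positive and 3 negative log2 differences. Myc, a factor of cell growth, was at 377, 508, 432 and 414 CPM in cKO 2, 6, 7 and 8, against 429.9, 358, 307, 334 and 325 CPM in WT 1, 3, 4, 5 and 9, with cKO 6 the highest of all and WT 1 the highest of the WT libraries. Its log2 difference of 0.30 did not pass (adjusted p = 0.0647). Within cKO, Myc did not follow the HSP90 and CCT shares. It was lowest in cKO 2, and higher in cKO 7 than in cKO 2 or cKO 8. The part of Myc and of the early response genes in the chaperone levels was not tested.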

How the data were processed

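Stranded mRNA libraries of 9 samples were made with a KAPA kit, per the labels. The authors deposited raw read counts per gene, 1 column per sample, with 0 columns of no sample. The tool bcl2fastq 2.17 and the build mm10 are named in the submitters' processing notes. For the aligner, counter, strand setting and annotation, the sources used here give nothing. Symbols were found for 37607 of 39017 IDs, and positions and transcripts came from GENCODE M21.

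All 9 samples were fitted in edgeR 4.0.16 (R 4.3.3) with TMM scaling, filterByExpr and the two-sided quasi-likelihood F test, with Benjamini-Hochberg adjustment over all 14693 genes tested and a threshold of 0.05. The test was tested on simulated data. Levels per kilobase used the transcript with the longest coding sequence. No pair of samples agreed within sampling noise (chi-square per gene 3.34 to 20.3 within groups). Alternatives within edgeR were scaling by the DESeq2 method or by upper quartile, 2 other count filters, and omission of each library. Tests in DESeq2 1.42.0 and limma 3.58.1 (voom) were also run. Copies were found with BLAST+ 2.17.0. Depth limits precision through counting error, and PCR copies of one molecule cannot be recognised here.

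The members and lists were chosen with earlier results of these data known. Genes named were all called members, the 2 most abundant per family, well known members, those nearest the total of 100, up to 4 called genes of each related list (otherwise the 2 with the smallest p) and Kdm6a. Others named were chosen after their values were seen, as were the overlap and pseudogene partners. Ero1a, on the list of ER folding enzymes, matched no symbol.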

Additional observations from a re-analysis of the deposited data

Results flagged for a closer look

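Of 188 sets of library values examined, each a chaperone or heat shock factor gene within 1 genotype, 6 held a library far from the others by Dixon's criterion at the 95% level, and chance alone marks about 1 in 20. In cKO, Dnajc11 was at 93.9 CPM in cKO 6, against 84.9 to 85.4 CPM in the other cKO libraries, and Hsf2 was at 32.9 CPM in cKO 6, against 26.5 to 27.4 CPM. In WT, Dnajb1 was at 109 CPM in WT 5, against 101 to 102 CPM in the other WT libraries, and Dnajc1 was at 66.8 CPM in WT 4, against 63.5 to 64.2 CPM. Dnajc6, which encodes the clathrin uncoating protein auxilin, was at 2.94 CPM in WT 9, against 1.46 to 1.74 CPM. Hspb11 was at 5.81 CPM in WT 1, against 6.65 to 6.91 CPM. Without WT 5, Dnajb1 had a log2 difference of -0.12 (edgeR adjusted p = 0.0990), and without WT 9, Dnajc6 had one of 0.85 (adjusted p = 0.0303) against 0.63 (adjusted p = 0.105) with it. Dnajc6 also passed in limma-voom with sample weights (0.76, adjusted p = 0.0350), and without cKO 7 its difference was 0.40 (adjusted p = 0.269).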

How the results depend on the processing

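Over 17 other settings, 3 of the 10 called members kept their call in each, Dnajb4, Dnajc15 and Hspa12a, and none of the 10 changed sign. Of the 62 members that were not called, 11 passed in at least 1 setting. Upper-quartile scaling called 7 members higher and DESeq2 8, against 4. With 1 library left out, the called members numbered from 3 to 18, the higher ones from 1 to 12 and the lower ones from 2 to 6, and the median stayed between 0.03 and 0.07. Over the whole table the called genes numbered from 1263 to 2933, the higher from 531 to 1363 and the lower from 732 to 1570, and upper-quartile scaling gave 1265 higher and 1068 lower, against 1028 and 1296. The cause of these shifts was not tested. Summing pseudogene copies into their genes, added after seeing the data, called 9 members, 3 higher and 6 lower. No paired analysis was possible because the replicate numbers of cKO (2, 6, 7 and 8) and WT (1, 3, 4, 5 and 9) are not shared. Genes under about 1 CPM, such as Hspa12b, Hspb9 and Dnajb3, rest on few counts, and their intervals are wide.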
